A study of Mus musculus with 59 samples.

Results

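Cells keep endogenous retroviruses and other retroelements silent with a chain of chromatin proteins, and 10 genes of that chain were followed here across mouse haematopoietic progenitors with and without Daxx: Trim28, Setdb1, Suv39h1, Cbx1, Cbx5, Dnmt1, Uhrf1, Dnmt3a, Dnmt3b and Morc3. The genes were taken by name as parts of a known pathway, with earlier results of these data known, and their rows were read in each of the 10 gene-level tables, which list 51810 genes (51812 in the untimed tables). Of the 10 genes, 9 passed the filter on low values in every tested table. Suv39h1 was listed at or near 0 throughout.

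In this pathway, KRAB zinc finger proteins bind retroelement DNA and bring in the scaffold Trim28, which recruits the histone methyltransferase Setdb1 to methylate histone H3 at lysine 9. That mark is read by the heterochromatin proteins Cbx1 (HP1 beta) and Cbx5 (HP1 alpha), while Suv39h1 spreads the same mark in constitutive heterochromatin. DNA methylation adds a further layer: Dnmt3a and Dnmt3b place it anew, and Dnmt1 copies it after replication at sites that Uhrf1 recognises. Morc3 is a chromatin ATPase that takes part in silencing. Daxx, together with Atrx, deposits the histone variant H3.3 in heterochromatin, and Dnmt3a is among the genes most often mutated in clonal haematopoiesis.

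RNA was sequenced from sorted bone marrow cells of C57BL/6 mice, and all genotypes, the controls included, carried 1 Cre allele. In most sets the driver was Mx1Cre, whose interferon-inducible promoter was switched on with pI:pC. Exons 2 to 7 of Daxx are flanked by loxP sites in the Daxx F/F line, and DKO mice carry floxed alleles of both Daxx and Pu.1 (the product of Spi1). The cells were KLS cells (c-Kit+ Lin- Sca-1+ stem and progenitor cells), GMPs (granulocyte-monocyte progenitors, sorted as Lin- Sca-1- cells that carry CD34, CD16/32 and c-Kit), the multipotent progenitors MPP3 and MPP4, and LT-HSCs (long-term haematopoietic stem cells). An untimed set held 2 WT and 2 Daxx-KO libraries of KLS cells and the same of GMPs. Its labels give neither the Cre line nor the time. The paper also reports KLS cells and GMPs sorted from lethally irradiated recipients of transplanted Mx1Cre marrow. The paper's other KLS and GMP libraries are from 3 and 24 weeks after induction, times that the untimed labels do not carry. The untimed set is thus most likely the transplantation experiment, although its labels do not settle it. Its changes may not be those of undisturbed marrow. At 3 weeks post induction (wpi) there were 3 WT, 3 Daxx-KO and 2 DKO libraries of each of the 2 cell types, and a separate Pu.1 line gave 2 control (Pu.1-WT) and 2 Pu.1-KO libraries of each. At 24 wpi, 2 WT libraries of each cell type stood beside 4 from mice with deleted Daxx. By the labels these 4 were 2 Daxx-KO and 2 DKO, which were not told apart. A further 4 MPP3 and 4 MPP4 libraries were taken at 3 wpi, by the labels 2 WT and 2 Daxx-KO of each. The 7 LT-HSC libraries came from RosaCreER mice 3 days after tamoxifen. By the labels they were 2 WT, 2 Daxx-het (Daxx +/F) and 3 Daxx-KO. The genotype of these 15 could not be tied to a column, so their values pool the genotypes. In total 59 libraries were used. The labels do not say that the untimed replicates are separate animals, and p-values then measure only the spread between these samples. Libraries of the Pu.1 line and of the 24 wpi set were placed by the control or treatment ending of the same animal's column in the deposited repeat-element tables, since no label gives their animal numbers.

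Reads assigned to genes ranged from 3045852 to 30136629 per library. Daxx itself was lower in each Daxx-deleted group with known genotype, by 1.98 on the log2 scale in untimed KLS cells (limma, adjusted p = 0.0016) and by 3.18 in GMPs at 3 wpi (adjusted p = 0.00076). The Spi1 count does not check the Pu.1 label, since the deleted stretch is not given in the sources used here: Spi1 averaged 3161.9 normalized counts in KLS libraries labelled DKO against 1888.5 in WT. Marker genes moved with genotype as well. In untimed KLS cells the 7 KLS markers summed to 5513.2 and 5591.1 RPM (reads per 1000000 reads of the library) in WT and to 1229.9 and 1302.8 in Daxx-KO, while the 6 GMP markers went from 101.0 and 195.4 to 1625.5 and 2151.6. In KLS cells at 3 wpi the 4 mature neutrophil markers reached 9083.0 and 10547.0 in DKO against 21.6 to 1457.9 in WT. In bulk RNA, fewer cells of a type and less RNA per cell cannot be told apart, and the part these markers play in the results was not tested.

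Suv39h1 was listed at 0 in 54 of the 59 libraries and collected 13 reads in all, with at most 5 in 1 library. A count of 3 reads, taken as the floor, corresponds to 0.0995 RPM in the deepest library and 0.985 in the shallowest, so that no fold was computed. The gene (X, 8061171 to 8074760, minus strand, mm10) shares 767 of its 5270 exon bases, 14.6%, with the antisense gene Gm14820. Whether the overlap bears on the low count was not tested. Its relative Suv39h2 was detected, with 60 reads in the median library.

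Among the WT libraries, Dnmt1 had the highest mean per unit of length in 7 of the 8 tables, with Trim28 or Uhrf1 next. In KLS cells Dnmt1 and Trim28 did not differ beyond their spread at 24 wpi (99.2 ± 10.9 against 100.1 ± 5.06 RPM per kilobase of exon, SD, n = 2), at 3 wpi (64.1 ± 11.1 against 62.7 ± 3.82, n = 3) or in the untimed set (52.6 ± 0.351 against 48 ± 5.5, n = 2). In untimed GMPs the level of Dnmt1 was 73.7 ± 7.38 on the same scale, followed by Uhrf1 at 56.5 ± 2.83, Trim28 at 55 ± 6.01, Cbx5 at 51.3 ± 0.619 and Morc3 at 50.6 ± 0.744. Of these neighbours, Uhrf1 and Trim28, Trim28 and Cbx5, and Cbx5 and Morc3 did not differ beyond their spread. Lower in the same libraries stood Cbx1 at 16.4 ± 2.66, Setdb1 at 16.1 ± 0.726, Dnmt3b at 8.2 ± 1.22 and Dnmt3a at 7.92 ± 0.315. Neither Cbx1 and Setdb1 nor Dnmt3b and Dnmt3a differed beyond their spread. These levels compare genes only roughly, because the length counted is that of all annotated exons.

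**Figure D1:**
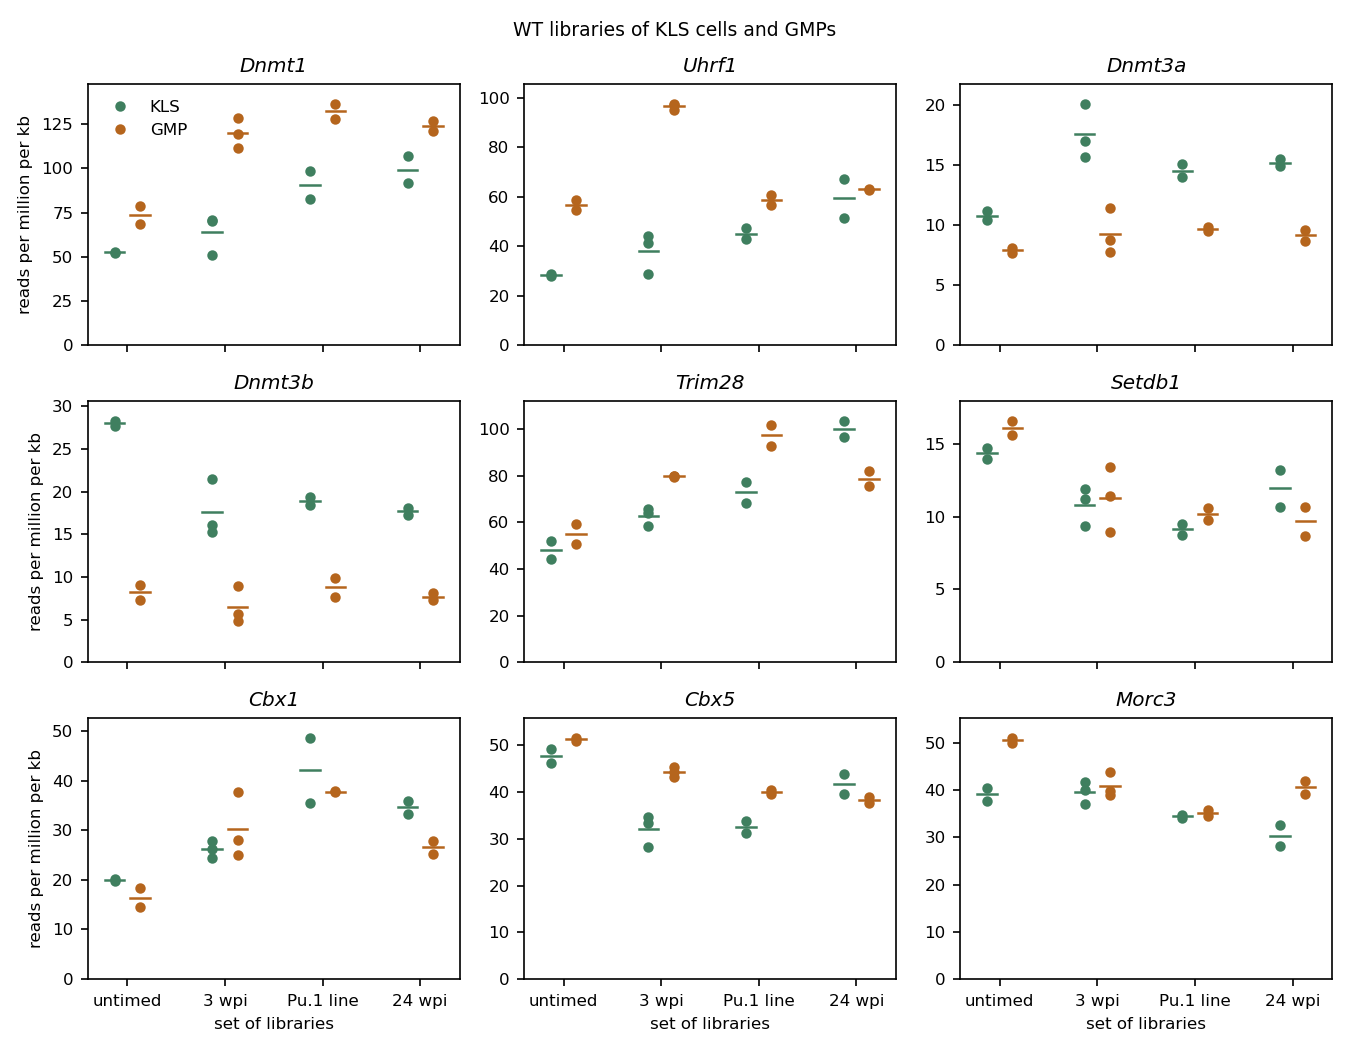
RPM per kilobase of exon (y axis, from 0) of the 9 detected genes in WT libraries of KLS cells (green) and GMPs (brown) in 4 sets of libraries (x axis); points are libraries and bars are means. Dnmt3b and Dnmt3a lay higher in KLS cells and Dnmt1 higher in GMPs in 4 of 4 sets.

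The maintenance and the de novo methyltransferases were ordered oppositely between the 2 cell types. These are descriptions with no test, since the tables of the 2 cell types were normalized separately and the values are set side by side as RPM. Dnmt3b was higher in WT KLS cells than in WT GMPs without overlap in 4 of 4 sets, by 2.14 to 3.41 times. In the untimed set its 2 KLS libraries held 141.3 and 144.3 RPM and its 2 GMP libraries 37.5 and 46.3. Dnmt3a was likewise higher in KLS cells in 4 of 4 sets, by 1.37 to 1.89 times. Dnmt1 was higher in GMPs in 4 of 4 sets, by 1.25 to 1.87 times. Uhrf1 was higher in GMPs without overlap in 3 of 4 sets and overlapped at 24 wpi, where the ratio was 1.06; at 3 wpi it was 2.53. Of 11674 genes with a mean of 10 or more in each of the 8 tables, 17.6% were higher in KLS cells in 4 of 4 sets and 11.4% higher in GMPs.

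Morc3 had the higher mean in GMPs in 4 of 4 sets but overlapped in 2 of them, with GMP to KLS ratios from 1.02 to 1.34. The other 4 members were not ordered the same way in each set. Trim28 was higher in GMPs at 3 wpi and in the Pu.1 line, overlapped in the untimed set and was higher in KLS cells at 24 wpi, with GMP to KLS ratios from 0.787 to 1.34. Cbx5 ranged from 0.918 to 1.38 and Cbx1 from 0.767 to 1.15. Setdb1 was higher in GMPs without overlap in 2 sets, overlapped in 1 and was higher in KLS cells at 24 wpi, at a ratio of 0.809. Mki67, a proliferation marker, was higher in WT GMPs than in WT KLS cells without overlap in 3 of 4 sets, at ratios up to 3.31.

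Promoters of the members were read next, since members moved together in the comparisons described further on. RefSeq (GRCm38.p6) gave 17 promoters for the 10 members, each read as the 250 bases before a transcription start, and 4 E2F-type words (TTTCCCGC, TTTGGCGC, TTTCGCGC or TTTGCCGC, on either strand) were searched, with CCAAT and GAGGAAGT; the words were chosen with results known. E2F factors are regulators of replication genes. The E2F-type words were found in 3 of 17 member promoters, 1 each of Dnmt1, Uhrf1 and Suv39h1, against 1.86% of all 32851 promoters, and in 5 of 15 promoters of a list of replication genes. CCAAT was found in 8 of 17 (33.8% of all), and GAGGAAGT, a Pu.1-type word, in 0 of 17 (2.44% of all). A match is a string of letters and not evidence of a bound site, and the shares over all promoters were not matched for base content. Cbx5 and Trim28 held no E2F-type word. Suv39h1 held such a word, but its count was listed at or near 0, so how its RNA moved could not be read. Whether the words bear on how members moved was not tested. The lines that follow give the Uhrf1 promoter with a match, the Dnmt1 window with a match, the first listed promoter of Dnmt3a and the promoter of Dnmt3b. None of these words was found in the promoters of Dnmt3a and Dnmt3b. Capitals mark the E2F-type and CCAAT words; in the Dnmt1 window they include CCAAT on both strands, which overlap each other.
Uhrf1 (chr17:56304063-56304312, plus strand): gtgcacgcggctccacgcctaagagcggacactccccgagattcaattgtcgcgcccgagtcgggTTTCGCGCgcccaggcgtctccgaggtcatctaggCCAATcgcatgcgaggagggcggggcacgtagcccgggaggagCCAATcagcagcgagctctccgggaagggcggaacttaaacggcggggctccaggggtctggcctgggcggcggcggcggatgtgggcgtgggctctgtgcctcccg
Dnmt1 (chr9:20952830-20952859, minus strand): CCAATTGGtttccgcgcGCGCGAAAaagcc
Dnmt3a (chr12:3806730-3806979, plus strand): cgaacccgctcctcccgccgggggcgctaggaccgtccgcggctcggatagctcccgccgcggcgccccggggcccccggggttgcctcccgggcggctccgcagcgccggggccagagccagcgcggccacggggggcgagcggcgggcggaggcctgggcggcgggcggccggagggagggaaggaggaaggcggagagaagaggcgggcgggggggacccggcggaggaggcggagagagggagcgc
Dnmt3b (chr2:153649199-153649448, plus strand): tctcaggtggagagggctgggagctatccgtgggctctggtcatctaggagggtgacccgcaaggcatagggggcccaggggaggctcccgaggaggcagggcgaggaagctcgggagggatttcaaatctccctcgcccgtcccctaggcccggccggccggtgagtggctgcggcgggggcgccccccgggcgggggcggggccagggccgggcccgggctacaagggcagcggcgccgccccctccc
In Uhrf1 the E2F-type word TTTCGCGC began 185 bases before the start and CCAAT 150 and 107 bases before it. The Dnmt1 window ran from 236 to 207 bases before 1 of its starts and lies in the first exon, 5′ untranslated, of another Dnmt1 transcript in GENCODE; the 3 longer stretches overlap no GENCODE exon. The Dnmt3a promoter shown held 38 CpG dinucleotides, more than 98.1% of all promoters, and the Dnmt3b promoter 21, more than 83.7%. The other listed promoters of Dnmt3a held 40 (more than 98.7%) and 15 (more than 72.7%), the latter fewer than that of Dnmt3b. CpG pairs are the substrate of the enzymes these 2 genes encode.

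Loss of Daxx in untimed GMPs went with less RNA for both parts of maintenance methylation and with more for Dnmt3a. The comparison asked what the deletion changed in committed myeloid progenitors, most likely those of transplanted recipients. Of the 9 members tested, 4 fell (Uhrf1, Cbx5, Trim28 and Dnmt1) and 1 rose (Dnmt3a), where 33% of the 12744 genes tested were called, 16.5% of them lower and 16.6% higher. A gene was called when its adjusted p fell under 0.05 in limma on log2(normalized count + 1), with adjustment over all genes tested. Groups did not overlap for 1 higher and 6 lower members, as for 33.1% and 34.1% of all genes. The median log2 fold change of the members was -0.49 and that of all genes -0.01.

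**Figure D2:**
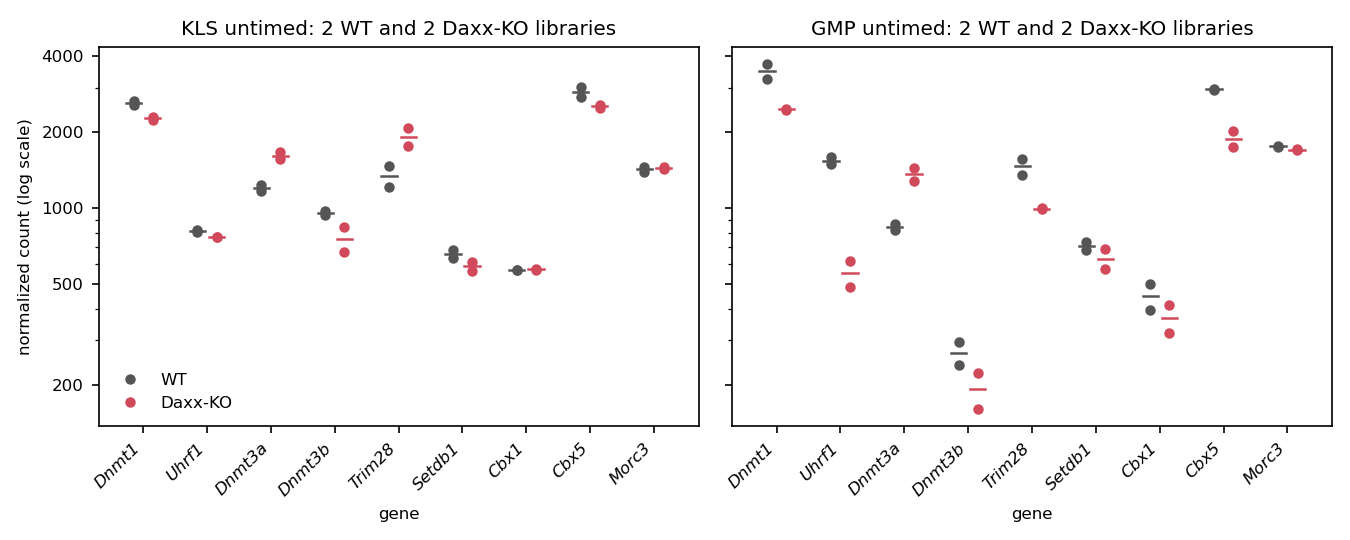
Normalized counts (y axis, log scale) of the 9 detected genes (x axis) in untimed KLS cells (left) and GMPs (right); points are libraries, 2 WT in grey and 2 Daxx-KO in red, and bars are means. Uhrf1 lay at 620.4 and 486.6 in Daxx-KO GMPs and at 1492.1 and 1592.1 in WT, whereas in KLS cells its 4 libraries lay between 767.9 and 820.6.

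Uhrf1, which recognises newly replicated methylated DNA, held 1492.1 and 1592.1 normalized counts in the WT GMP libraries and 620.4 and 486.6 in Daxx-KO. The groups did not overlap and the level was 2.80-fold lower (log2 fold change -1.49, SE 0.13, limma adjusted p = 5.4e-05). Dnmt1 went from 3245.7 and 3718.3 to 2447.2 and 2481.7, a log2 fold change of -0.50 (SE 0.09, limma adjusted p = 0.0034). Both enzymes of the maintenance step were thus lower in 2 of 2 Daxx-KO libraries than in either WT library. Dnmt3a, the de novo enzyme, went the other way, from 870.3 and 817.8 to 1285.4 and 1449.3 (log2 fold change 0.69, SE 0.10, limma adjusted p = 0.00094). Dnmt3b was at 240.7 and 295.5 in WT and at 223.0 and 161.1 in Daxx-KO, and its log2 fold change of -0.49 (SE 0.20) did not pass the test (limma adjusted p = 0.087).

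Of the histone-directed members, Cbx5 fell in untimed Daxx-KO GMPs from 2942.6 and 2975.6 to 2027.5 and 1747.1 (log2 fold change -0.65, SE 0.10, limma adjusted p = 0.00096). Trim28 fell from 1355.5 and 1573.2 to 991.4 and 1002.2 (-0.55, SE 0.10, limma adjusted p = 0.0033); without WT 2 its adjusted p was 0.051, and that of Dnmt1, which kept its call, was 0.05 as rounded. Setdb1, the methyltransferase it recruits, had a log2 fold change of -0.17 (95% interval -0.44 to 0.10), and Morc3 one of -0.05 (-0.24 to 0.14). Cbx1 was at 502.1 and 396.7 in WT and 413.6 and 320.6 in Daxx-KO, with overlapping groups.

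A list of 40 further genes of the silencing pathway and 1 of 18 replication genes were read in the same fit. Of the pathway list 39 were tested, 6 rose and 7 fell: Daxx (log2 fold change -2.42), the remodeller Hells (-1.42), which helps DNA methylation, the replication-coupled histone chaperone Chaf1a (-0.76) and, upwards, the Setdb1 partner Atf7ip (0.73) were the largest called changes. Of the 18 replication genes 17 fell, led by Ccna2 (-1.72), Gins2 (-1.67), Cdc6 (-1.57) and Tyms (-1.43), with a median log2 fold change of -1.20. Mature neutrophil markers summed to 449.1 and 620.8 RPM in the WT GMP libraries and to 2458.9 and 3768.4 in Daxx-KO, which moved with these changes.

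In untimed KLS cells Trim28 and Dnmt3a rose, 2 of 9 members, and 0 fell, where 23.1% of 13508 genes were called (10.6% higher); the count is near that background share. How the 2 cell types differ in these changes was not tested. Trim28 was at 1216.2 and 1464.1 in WT and at 1757.9 and 2082.5 in Daxx-KO (log2 fold change 0.52, SE 0.13, limma adjusted p = 0.022). Dnmt3a was at 1240.3 and 1174.7 in WT and at 1667.1 and 1566.4 in Daxx-KO (0.42, SE 0.10, limma adjusted p = 0.018). Dnmt3a was the only member that rose in both cell types of this set. Groups did not overlap for 2 higher and 5 lower members, where 32.9% of all genes were higher and 29.8% lower without overlap. Each call was lost without either Daxx-KO library, and also without WT 1 for Trim28 and without WT 2 for Dnmt3a. Both were lost without the filter on low values (limma adjusted p = 0.1 for Trim28 and 0.061 for Dnmt3a).

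The maintenance enzymes did not pass the test in untimed KLS cells. Uhrf1 was at 820.6 and 809.5 in WT and at 767.9 and 769.4 in Daxx-KO, a log2 fold change of -0.08 (95% interval -0.33 to 0.16). Dnmt1 had a log2 fold change of -0.20 (-0.41 to 0.01) and Dnmt3b of -0.35 (-0.65 to -0.04, limma adjusted p = 0.096). Morc3 and Cbx1 lay within 0.02 of no change. In the pathway list 5 genes rose and 4 fell; the KRAB zinc finger gene Zfp57 (-2.92), Daxx (-1.98), the 5-methylcytosine oxidase Tet1 (-0.92) and Chaf1b (-0.75) had the largest called changes. Of the 18 replication genes 2 fell, Mki67 (-0.44) and Top2a (-0.39), and 0 rose.

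At 3 wpi in KLS cells, loss of Daxx alone brought no member past the test. Of 9 members 0 were called, where 0.257% of 15200 genes were; 4 members were at an unadjusted p under 0.05, as were 1777 of all genes, and edgeR and DESeq2 also called 0. Trim28, Uhrf1, Cbx1 and Cbx5 were higher in 3 of 3 Daxx-KO libraries than in any WT library, where 9.07% of all genes were, and Morc3 was lower without overlap (9.16% of all genes). Uhrf1 was at 1630.9, 2328.6 and 2498.0 in WT and at 2781.0, 5500.0 and 2775.5 in Daxx-KO, with a log2 fold change of 0.72 (95% interval 0.04 to 1.40, limma adjusted p = 0.41). Daxx-KO library 2 was the highest of the 3 for Trim28, Cbx1, Cbx5, Dnmt1 and Uhrf1, and held 33269.0 normalized counts of Mki67 against 9959.9 and 10204.4 in the other 2. Markers of B lineage cells summed to 103.4 to 2266.0 RPM in Daxx-KO and 22 to 48.1 in WT. Among the 40 pathway genes only Daxx was called. Of the 18 replication genes 0 were called; 18 of 18 estimates lay above 0, with a median log2 fold change of 0.50 beside 0.36 for the members, and their part in the members' values was not tested.

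In KLS libraries labelled DKO, Dnmt3b was lower than in WT and in Daxx-KO. The comparison with WT called 1 of 9 members, Dnmt3b, where 17.6% of genes were called (8.4% lower), and the comparison with Daxx-KO called 2, Dnmt3b and Cbx1, where 15.4% were (7.22% lower). Neither count stands far from its background share. The 2 comparisons share the DKO libraries. Dnmt3b was at 1035.4, 1445.9 and 1089.5 in WT, at 1571.6, 1519.0 and 1332.8 in Daxx-KO and at 710.0 and 830.8 in DKO. The DKO libraries were thus the lowest 2 of the 8, while WT and Daxx-KO overlapped. The log2 fold change of Dnmt3b was -0.62 against WT (SE 0.18, limma adjusted p = 0.040) and -0.94 against Daxx-KO (SE 0.18, limma adjusted p = 0.0069). Cbx1, a reader of methylated histone H3, was at 1489.9 and 1244.2 in DKO and at 2033.2, 2543.6 and 1749.2 in Daxx-KO (-0.61, SE 0.18, limma adjusted p = 0.042).

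**Figure D3:**
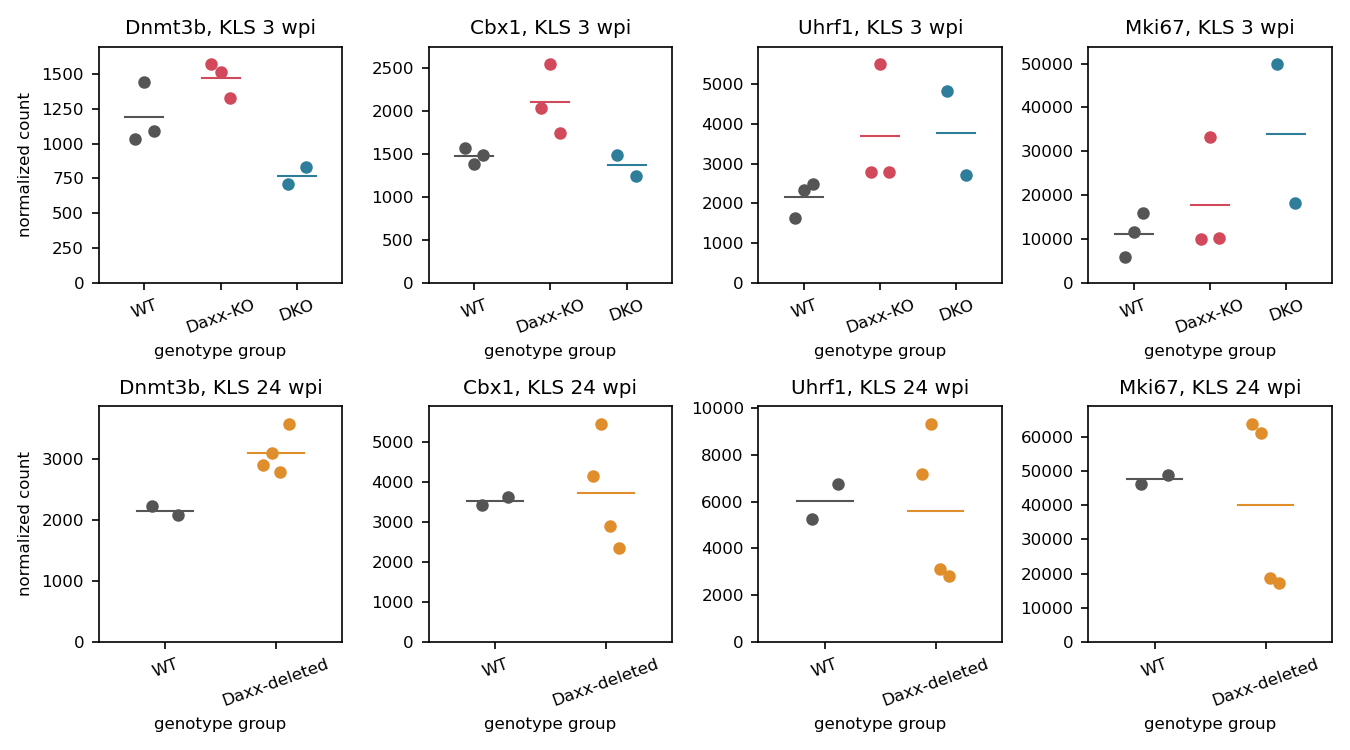
Normalized counts (y axes, from 0) of Dnmt3b, Cbx1, Uhrf1 and the proliferation marker Mki67 in KLS cells at 3 wpi (top: WT, Daxx-KO and DKO) and 24 wpi (bottom: WT and Daxx-deleted, which may be Daxx-KO or DKO); points are libraries and bars are means. Dnmt3b lay at 710.0 and 830.8 in DKO, under the other 6 libraries at 3 wpi, and at 24 wpi above both WT libraries in 4 of 4 Daxx-deleted libraries.

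The de novo partner Dnmt3a was at 3108.1 and 2731.3 in DKO against 3758.9, 4397.6 and 3469.5 in WT, lower without overlap (23.7% of all genes were), but did not pass the test (log2 fold change -0.40, limma adjusted p = 0.086). Uhrf1 was at 4821.2 and 2715.9 in DKO, both above the WT libraries (26% of all genes were; log2 fold change 0.77, 95% interval 0.02 to 1.53, limma adjusted p = 0.15). For Setdb1 the 95% interval against WT ran from -0.39 to 0.38. Against Daxx-KO, 5 members were lower in DKO without overlap, where 22.3% of all genes were. In the pathway list Tet1, which oxidises methylated cytosine, fell the most after Daxx in KLS libraries labelled DKO: it averaged 466.6 against 2088.0 in WT (-2.14, limma adjusted p = 0.00025) and 1912.8 in Daxx-KO (-2.04, limma adjusted p = 0.00024). Daxx fell by 2.42 on the log2 scale, and the methyl-CpG reader Mbd2 (1.32) and the H3.3 gene H3f3b (0.67) rose; in all, 3 pathway genes rose and 2 fell against WT. Against Daxx-KO, 3 rose (Mbd2 1.27, Fam208a 0.64 and Kdm4c 0.52) and 1 fell. Of the 18 replication genes 5 rose against WT, among them Rrm2 (2.20), Ccnb1 (2.04), Ccna2 (1.88) and Cdk1 (1.59), and 0 were called against Daxx-KO. GMP markers summed to 6972.1 and 8012.7 RPM in the DKO KLS libraries against 352.4 to 3225.4 in WT and 276.3 to 913.7 in Daxx-KO.

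The calls in the DKO comparisons rest on few libraries. Dnmt3b against WT kept its call in 5 of 12 alternatives and was no longer called without DKO 1, DKO 2, WT 1 or WT 2 (adjusted p 0.057 to 0.26), and Cbx1 against Daxx-KO without DKO 1, DKO 2, Daxx-KO 1 or Daxx-KO 2 (0.068 to 0.19). Dnmt3b against Daxx-KO was lost only without DKO 1 (0.084), among the 12 alternatives of that comparison. With the replicate number as a block, the adjusted p was 0.078 for Dnmt3b against WT and 0.08 for Cbx1 against Daxx-KO.

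GMPs at 3 wpi showed no called member in any of the 3 comparisons. Background calls were also few, at 0.0948% of 13714 genes for Daxx-KO against WT, 0.292% for DKO against WT and 0.0583% for DKO against Daxx-KO; at an unadjusted p under 0.05 there were 433, 961 and 1104 genes, and 0, 0 and 1 members. Both edgeR and DESeq2 called 0 members. Morc3 was lower in DKO than in WT without overlap, the only member that was, where 8.41% of all genes were. For Daxx-KO against WT the intervals were -0.48 to 0.25 for Uhrf1, -0.39 to 0.43 for Dnmt1, -0.44 to 0.41 for Dnmt3a and -0.35 to 0.57 for Trim28. The untimed values of Uhrf1 (-1.49) and Dnmt3a (0.69) lay outside the respective interval; the difference between the 2 sets was not tested. Dnmt3b was at 379.2, 553.4 and 327.5 in WT, at 658.2, 491.4 and 552.5 in Daxx-KO and at 300.3 and 427.1 in DKO. DKO lay below Daxx-KO without overlap (9.98% of all genes did), with a log2 fold change of -0.65 (95% interval -1.26 to -0.04, limma adjusted p = 0.58). Tet1 fell in GMPs labelled DKO against WT (-1.51, limma adjusted p = 0.043), and apart from Daxx (-3.19) it was the only pathway gene called there. None of the 18 replication genes was called by limma in the 3 comparisons. Libraries within a group differed widely in mature neutrophil markers. These summed to 3317.2 to 16073.4 RPM in WT, 2123.3 to 17756.7 in Daxx-KO and 6742.9 and 10950.0 in DKO. The part of this spread in the absence of calls was not tested.

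At 24 wpi, with 2 WT and 4 Daxx-deleted libraries of unsettled genotype, no test was made. In KLS cells Dnmt3b was at 2223.0 and 2080.8 in WT and at 2907.2, 3104.3, 2790.8 and 3583.9 in the Daxx-deleted libraries, above WT in 4 of 4, where 9.05% of 16485 genes were. It was the only 1 of the 9 members without overlap. Uhrf1 spread widely among the deleted KLS libraries, at 7194.5, 9343.6, 3102.8 and 2797.1 for animals a, b, c and d, around WT values of 5270.5 and 6748.4. Mki67 was likewise high in a and b and low in c and d, at 63962.6, 61069.9, 18538.2 and 17248.8, against 46273.8 and 48963.0 in WT. Dnmt1 in those 4 libraries was at 21548.5, 26462.6, 12720.3 and 11440.7 and Cbx5 at 10728.1, 11054.6, 5306.9 and 4866.0, so animals a and b were high and c and d low for each of these 4 genes. By the labels 2 of these 4 animals are Daxx-KO and 2 are DKO. Whether the split follows genotype could not be told.

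In GMPs at 24 wpi, Dnmt1 and Dnmt3a were lower in 4 of 4 Daxx-deleted libraries than in either WT library, where 12.1% of 16894 genes were. Dnmt3a was at 3314.4 and 3570.4 in WT and at 3131.4, 2903.7, 2414.6 and 2469.2 in the deleted libraries. Dnmt1 was at 21352.6 and 20000.4 in WT and at 19909.7, 17834.0, 16578.7 and 16962.8, the highest of which lay close to the lower WT value. The mean log2 differences were -0.34 and -0.22. Dnmt3b, higher in the deleted KLS cells, overlapped in GMPs (852.6 and 920.2 in WT, 551.2 to 879.3 in the deleted libraries). Mature neutrophil markers summed to 268.7 and 324.9 RPM in the WT KLS libraries and to 1484.3 to 2571.7 in the deleted ones, and in GMPs to 2648.5 and 2875.2 against 8721.0 to 22892.7. Erythroid markers summed to 874.1 and 1003.6 RPM in the WT KLS libraries and to 13.2 to 55.2 in the deleted ones, and in GMPs to 318.1 and 354.5 against 7.17 to 77.2. The part of these other cells in the 24 wpi values was not tested.

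In the Pu.1 line, whose labels name no Daxx deletion, Dnmt3b, Trim28, Cbx5 and Setdb1 fell in GMP libraries labelled Pu.1-KO, and no member was called in KLS cells. Daxx itself was at 788.3 and 787.3 in Pu.1-WT GMPs and at 558.2 and 701.2 in Pu.1-KO. In KLS cells it was at 920.3 and 625.3 against 478.4 and 295.1. Both were lower without overlap, as were 33.5% of all genes in GMPs and 31.9% in KLS cells. In GMPs, 4 of 9 members fell and 0 rose, where 17.6% of 19337 genes were called (8.49% lower). All 9 were lower without overlap, as were 33.5% of all genes; their median log2 fold change was -0.50, and that of all genes lay between -0.18 and 0.11 in the scalings tried (0 in the fit used). Dnmt3b was at 521.7 and 706.4 in Pu.1-WT and at 226.4 and 340.8 in Pu.1-KO (2.18-fold lower, SE 0.27 on the log2 scale, limma adjusted p = 0.00089). Trim28 went from 5143.6 and 5903.1 to 2566.4 and 3836.5 (-0.81, limma adjusted p = 0.012). Cbx5 went from 4856.9 and 4998.3 to 2255.3 and 3517.2 (-0.81, limma adjusted p = 0.012), and Setdb1 from 892.0 and 1015.8 to 524.4 and 629.3 (-0.73, limma adjusted p = 0.025). Pu.1-KO library a was the lower of the pair for each of these 4 genes.

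The maintenance enzymes did not pass the test in these GMPs: Dnmt1 had a log2 fold change of -0.50 (95% interval -1.05 to 0.05) and Uhrf1 of -0.33 (-0.80 to 0.14). Nor did Cbx1 (-0.49), Dnmt3a (-0.44) and Morc3 (-0.33). In the pathway list 6 genes fell and 0 rose, with Zfp932 (-1.45), Tet1 (-1.11), Setdb2 (-0.86) and Morc2a (-0.72) the largest; of the replication list Aurkb fell (-0.73). The 4 calls were lost without either Pu.1-WT library, and the count over all genes, 3412 with all libraries, then fell as well, to 151 without Pu.1-WT b. Without Pu.1-KO b, 9 members and 8163 of all genes were called. Mature neutrophil markers summed to 9718.1 and 11677.4 RPM in Pu.1-KO GMPs against 1261.3 and 1753.5 in Pu.1-WT.

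KLS cells of the Pu.1 line gave no call among 9 members, where 0.81% of 23459 genes were called; 4 members and 6071 genes were at an unadjusted p under 0.05, edgeR called 0 members and DESeq2 1 (Trim28, adjusted p = 0.047). All 9 members were lower without overlap, as were 31.9% of all genes. Trim28 was at 6451.7 and 4580.4 in Pu.1-WT and at 2463.2 and 778.9 in Pu.1-KO (log2 fold change -1.97, SE 0.66, 95% interval -3.26 to -0.68, limma adjusted p = 0.073). Dnmt3b was at 1884.0 and 1585.6 against 864.3 and 419.9 (-1.52, SE 0.58, limma adjusted p = 0.10). The member median was -1.37, while the median of all genes moved from -0.35 to 0.26 with the scaling (0.12 in the fit used). The split of calls over all genes moved with it: 110 higher and 80 lower in the fit used, 587 and 200 with TMM, 1493 and 194 by edgeR, and 638 and 314 by DESeq2. Library Pu.1-KO b was the lowest of the 4 for each member and had the most genes above 0, 30291. Without Pu.1-KO a, which leaves this library as the only Pu.1-KO sample, 9 members were called lower, as 6905 of all genes were called in either direction against 190 with all libraries. Mature neutrophil markers were at 4291.1 and 6400.5 RPM in Pu.1-KO against 1015.8 and 1482.4.

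**Figure D4:**
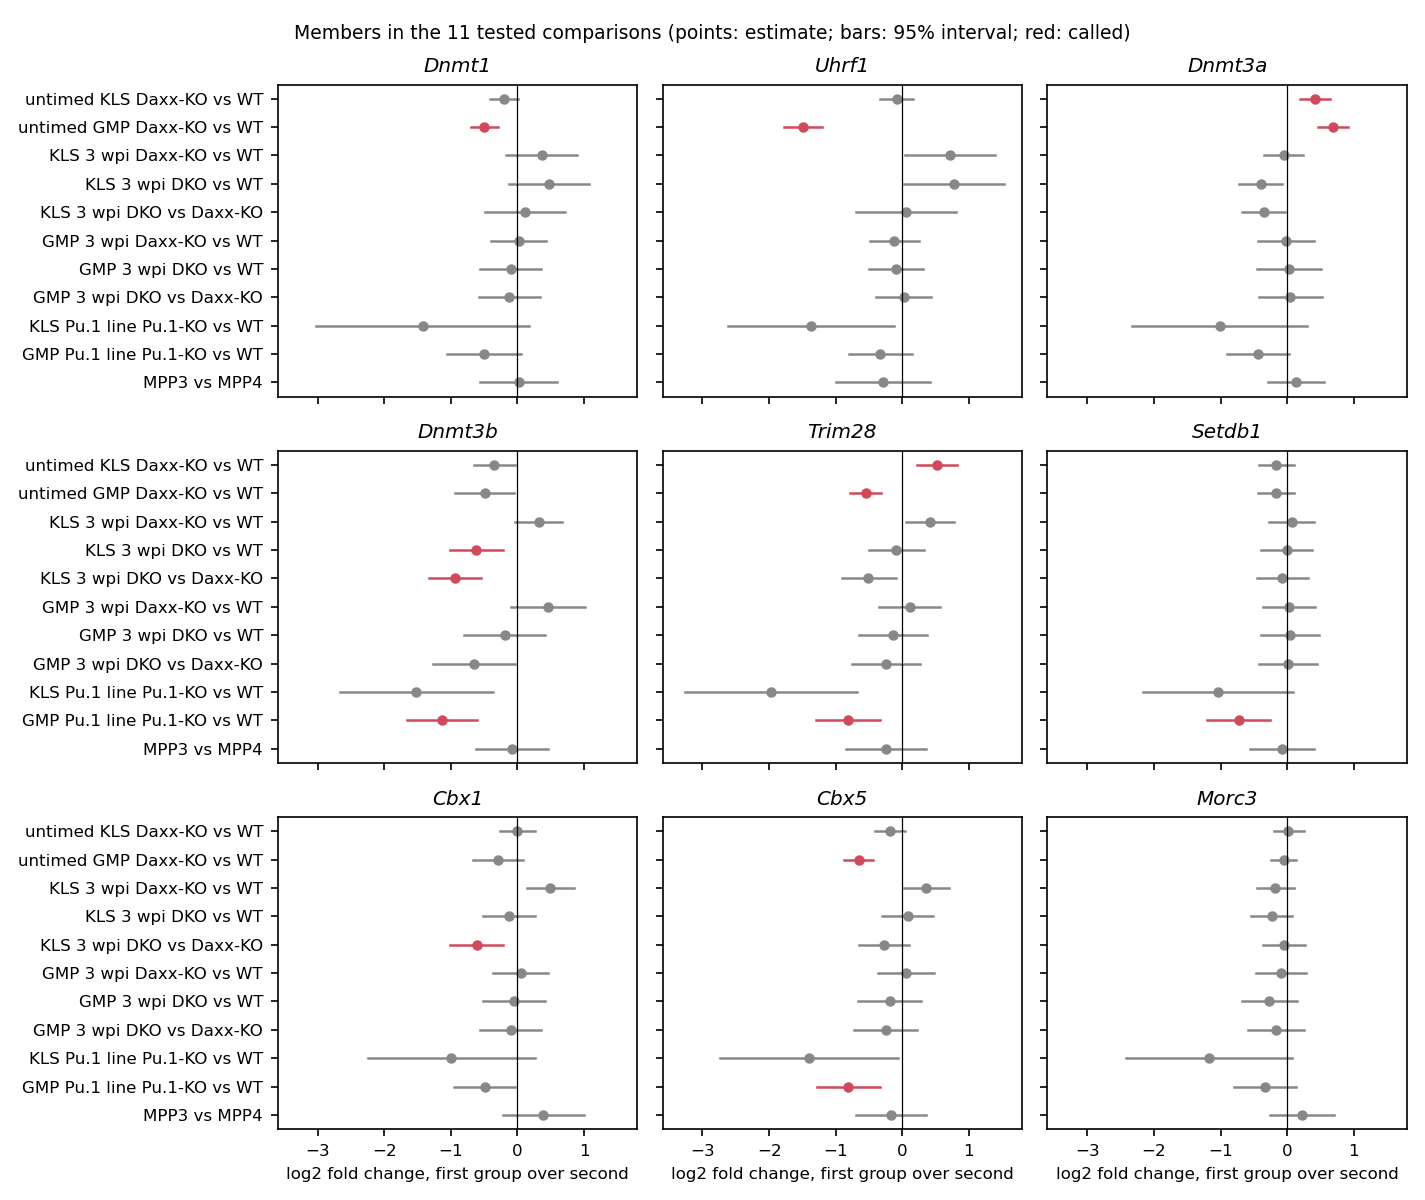
Log2 fold change (x axis) of the 9 detected genes in the 11 tested comparisons (y axis), with 95% intervals as bars; red marks an adjusted p under 0.05 in limma. Dnmt3b lay lower in DKO KLS cells and in Pu.1-KO GMPs, and the widest intervals were those of the KLS cells of the Pu.1 line.

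MPP3 cells, which lean to the myeloid fate, and MPP4 cells, which lean to the lymphoid fate, came from the same 4 animals, WT and Daxx-KO pooled. The fit used did not pair them by animal, so the intervals below include the spread between animals and genotypes. None of 9 members was called by limma, and 0% of 20137 genes were. A limma fit with the animal as a block, edgeR and DESeq2 called 0 as well. In the fit used, 107 genes, 0 of them members, were at an unadjusted p under 0.05. Flt3, the surface marker that separates these gates, was higher in MPP4 in 4 of 4 animals (from 2532.9 to 3333.0 in MPP3 and from 3210.8 to 6469.0 in MPP4). Of MPP3 over MPP4, Cbx1 had a log2 fold change of 0.39 (95% interval -0.22 to 1.00), Uhrf1 of -0.29 (-0.99 to 0.42), Trim28 of -0.25 (-0.84 to 0.35) and Dnmt1 of 0.02 (-0.56 to 0.59). Uhrf1 was at 1461.9, 2298.6, 3233.0 and 3962.0 in MPP3 of animals a to d and at 1947.0, 2885.4, 3978.2 and 4283.1 in MPP4, higher in MPP4 in 4 of 4 animals. In the pathway and replication lists 0 genes were called.

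The 7 LT-HSC libraries pool WT, Daxx-het and Daxx-KO mice, whose genotypes could not be assigned. Dnmt1 ran from 7058.0 through a median of 8166.0 to 9645.0 normalized counts in them. Uhrf1 ran from 1597.8 through 2150.9 to 2782.9, Dnmt3a from 1892.8 through 2426.9 to 2626.7, and Dnmt3b from 692.5 through 1120.9 to 1314.2. Trim28 ran from 2758.6 through 3619.9 to 4387.8. Per kilobase of exon the highest mean level was that of Dnmt1, at 118.9 ± 16.5 RPM, and the lowest that of Setdb1, at 11.5 ± 2.18 (SD, n = 7). Daxx itself ran from 69.5 to 384.2.

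Across the 59 libraries, centred within each table, the members varied together to different degrees, with no clear gap between groups. Cbx1, for instance, had a Pearson r of 0.73 with Cbx5 and 0.68 with Dnmt1. Dnmt1 followed Uhrf1 (Pearson r = 0.90) and Cbx5 (0.90), and Trim28 followed Cbx5 (0.89), whereas Dnmt3a and Uhrf1 had an r of 0.00. Among 8727 genes with a mean of 50 or more in each table, the 3 most like Uhrf1 were the replication helicase genes Mcm5, Mcm7 and Mcm10 (0.93 each), and those most like Dnmt1 were Timeless (0.93), Mcm2 (0.93) and Mcm5 (0.92). Trim28 was closest to Vars (0.95), Rcc2 (0.95) and Sf3a1 (0.94), and Cbx5 to Ipo5 (0.94), Sf3b3 (0.93) and Pa2g4 (0.92). Cbx1 was closest to Ddx27 (0.87), Serbp1 (0.87) and Hnrnpm (0.86). Dnmt3a was closest to Akap13 (0.86), Etv6 (0.86) and Bbx (0.85), Dnmt3b to Usp10 (0.82), Mdn1 (0.81) and Wdr12 (0.80), Setdb1 to Celf1 (0.86), Ankrd17 (0.86) and Wdr33 (0.85), and Morc3 to Ppp1r12c (0.84), Ccnl2 (0.83) and Dido1 (0.83). The libraries share animals, genotype and depth within a table, so these values are given as descriptions with no test.

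**Figure D5:**
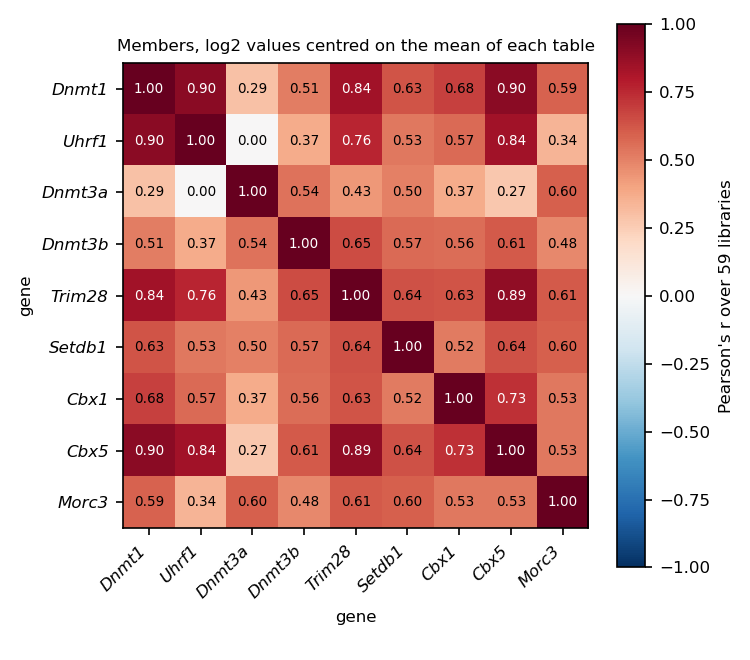
Pearson's r between the 9 detected genes over 59 libraries, from log2(normalized count + 1) centred on the mean of each table; red is positive and white is 0. Dnmt1, Uhrf1, Cbx5 and Trim28 form the block of highest values, between 0.76 and 0.90, followed by Cbx1 with Cbx5 at 0.73. Dnmt3a lies nearest to 0 with Uhrf1.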

How the data were processed

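RNA from sorted cells was sequenced, and the deposited gene tables hold normalized counts, a signal that the authors made by scaling the reads of each gene with the size factor of its library; the build was mm10 and the annotation GENCODE. The submitters' processing notes name CASAVA 1.8.4, cutadapt 1.13, STAR 2.5.3 and DESeq2 1.16.1. Whole reads were recovered from the steps of the values (100.0% of values above 0 whole within 0.01), and 59 columns in 10 tables were used; the values of 52 columns in 8 repeat-element tables were not used here. The labels name 1 library kit for all samples whereas the methods give steady-state cells another, and which kit a library had is not settled.

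Columns of the untimed set and of KLS cells at 3 wpi were placed by the labels, and animal numbers tie the GMP libraries at 3 wpi to those KLS libraries. No label gives the animal numbers of the Pu.1 line, the 24 wpi set or the unnumbered WT animal at 3 wpi; their columns were placed by the control or treatment ending of the same animal's column in the repeat-element tables, of which only the column names were read. Letters name libraries whose labels give no number. Replicates were compared by chi-square and none was a duplicate.

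Genes with a mean normalized count of 10 or more over a table were tested in R 4.3.3 on log2(value + 1) by limma 3.58.1, whose variance prior followed the mean, all groups of a table in 1 fit, two-sided, with Benjamini-Hochberg adjustment over all genes tested, and called at an adjusted p under 0.05; 11 comparisons were made. Folds on this scale understate the change of low genes. Alternatives were a pseudocount of 8, no filter, TMM scaling, edgeR 4.0.16 and DESeq2 1.42.0 on recovered reads, only the 2 groups compared in the fit, a replicate block and leaving out each library. The tests were tried on simulated data. Because the MPP3 and MPP4 columns carry the same 4 animal numbers, these libraries are paired by animal, which the main fit did not use. The correlations of deviations were -0.361, 0.200, 0.458 and 0.556 for animals a to d. Deviations were taken from the mean of each cell type, so they include differences of genotype.

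Gene coordinates and exon lengths are from GENCODE M21 (mm10), and promoters from RefSeq (GRCm38.p6). The counting was not stated to use strand, so reads of Dnmt3a (133 bases shared with Dnmt3aos), Setdb1 (75 with Cers2 and 249 with Gm37500) and Suv39h1 may hold reads of overlapping genes, and reads of genes with near-identical pseudogene copies are uncertain. The 10 members and the lists of 40 and 18 genes were chosen with earlier results of these data known. Each member was reported in every table; of the lists, up to 4 called genes with the largest change were named per comparison, with Daxx and Spi1. Floors and intervals cover counting error or the spread between libraries only.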

Additional observations from a re-analysis of the deposited data

Results flagged for a closer look

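Within groups of 4 to 10 libraries, 45 sets of member values were screened by the gap between the most extreme library and its neighbour, and chance marks about 1 in 20 such sets. Setdb1 in GMPs at 24 wpi was at 1210.5 normalized counts in Daxx-deleted library c, and the other 3 lay between 1707.4 and 1777.2. Morc3 in LT-HSCs was at 2525.9 in library g, and the other 6 lay between 1389.1 and 1857.1.

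Among 63 pairs of effects (of Daxx loss, of Pu.1 loss or of both), 3 had non-overlapping groups of opposite direction, and none of these differences was tested. The 3 were all of Daxx-KO against WT. Trim28 had a log2 fold change of 0.52 in untimed KLS cells and -0.55 in untimed GMPs. Cbx5 had one of -0.19 in untimed KLS cells and 0.36 in KLS cells at 3 wpi, and Uhrf1 one of -0.08 and 0.72 in the same 2 sets.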

How the results depend on the processing

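Of 1152 estimates of a member under an alternative, 66 changed sign, none of them called in either fit; 32 lost and 18 gained a call. Members called fell from 2 to 0 without the filter in untimed KLS cells; for KLS DKO against WT from 1 to 0 without the filter, with 2 groups in the fit and with the replicate block; and for KLS DKO against Daxx-KO from 2 to 1 under the same 3. DESeq2 called 1 member in KLS cells of the Pu.1 line. On leaving out 1 library, members called ranged from 0 to 1 in untimed KLS cells, 4 to 7 in untimed GMPs, 0 to 1 and 0 to 2 in KLS DKO against WT and Daxx-KO, and 0 to 9 in KLS cells and in GMPs of the Pu.1 line; all other comparisons stayed at 0. A lone remaining sample was assumed to vary like the other groups. Beyond fewer samples and more genes tested, the cause was not tested.

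Counts over all genes moved by more than 1.5 times in untimed KLS cells (3118 to 1751 without the filter), KLS Daxx-KO at 3 wpi (39 to 339 by DESeq2 and 81 with the block), KLS DKO against Daxx-KO (2340 to 1283 with the block), GMP Daxx-KO (13 to 67 by DESeq2), GMP DKO against WT (40 to 257 by DESeq2 and 5 with 2 groups), GMP DKO against Daxx-KO (8 to 18 with a pseudocount of 8 or TMM, 13 without the filter, 20 by edgeR, 269 by DESeq2 and 0 with 2 groups) and KLS cells of the Pu.1 line (190, 110 of them higher, to 787 by TMM, 587 higher, 1687 by edgeR, 1493 higher, and 952 by DESeq2, 638 higher). Leaving out 1 library moved the count over all genes, and with it the background shares: 419 to 3290 in untimed KLS cells, 2162 to 4448 in untimed GMPs (4209 with all), 8 to 137 for KLS Daxx-KO at 3 wpi, 574 to 2975 for KLS DKO against WT (2681 with all), 672 to 2481 against Daxx-KO, 13 to 6905 in KLS cells and 151 to 8163 in GMPs of the Pu.1 line (3412 with all), and for GMPs at 3 wpi 4 to 11, 2 to 90 and 0 to 71. In GMPs of the Pu.1 line the split was 1770 higher and 1642 lower, and 1218 and 1581 by DESeq2.

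The replicate block left 2 members called in untimed KLS cells, 5 in untimed GMPs, 0 in KLS Daxx-KO at 3 wpi and 0 for MPP3 against MPP4. Same-numbered libraries deviated together by -0.075 in untimed KLS cells, -0.134 in untimed GMPs and -0.251 to 0.204 in KLS cells at 3 wpi, so that these numbers were not read as pairs. Crossed pairing, chosen after seeing the data, called 6 members and 4921 genes in untimed GMPs. For GMPs at 3 wpi a replicate block by the KLS number of each animal, without the unnumbered library and chosen after seeing the data, called 0 members and 0 genes in each of the 3 comparisons. No paired analysis was possible for the Pu.1 line because its columns carry no replicate numbers.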
